A study of Mus musculus with 12 samples.

Results

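MHC class I antigen presentation was followed through 10 genes of the spinal cord transcriptome, namely B2m, H2-K1, H2-D1, H2-T23, Tap1, Tap2, Tapbp, Psmb8, Psmb9 and Nlrc5. The genes were chosen by name as rows of the deposited count table, which holds 45906 genes, and all 10 were among the 20155 genes that passed the filter on low counts. RNA came from the spinal cord of mice aged 7 months, and 3 mice each were Plekhg5+/+ or Plekhg5-/-, without or with the SOD1-G93A transgene. Plekhg5 is an exchange factor for a small GTPase of neuronal autophagy and is missing in the whole animal in the Plekhg5-/- mice. SOD1-G93A is a transgene for a mutant human superoxide dismutase that causes motoneuron disease, carried here in a low-copy line with slow progression. The paper reports earlier onset but longer survival in transgenic mice without Plekhg5, so a single age need not show the same stage in both transgenic genotypes.

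Class I molecules display peptides from inside a cell to CD8+ T cells and natural killer cells. Each molecule pairs a heavy chain with the light chain beta-2-microglobulin, and its peptides are cut by the proteasome, pumped into the endoplasmic reticulum by the TAP transporter and loaded with the help of tapasin. Interferon signalling switches on this machinery, partly through the transactivator Nlrc5. In the healthy central nervous system the class I genes are expressed at a low level, and microglia, the resident macrophages, and endothelial cells are prominent sources.

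Of the 10 genes, 8 lie on mouse chromosome 17 (GRCm38.p6) and belong to the MHC region. Psmb9 (chr17:34182030-34187330, minus strand) and Tap1 (chr17:34187556-34197225, plus strand) point away from each other with 225 bases between them. Psmb8 (chr17:34198195-34201454) and Tap2 (chr17:34204479-34216321) follow on the plus strand, so that these 4 genes span 34292 bases. The heavy chain genes lie outside this stretch, with H2-K1 at chr17:33996012-34000619 on the minus strand, H2-D1 at chr17:35263094-35267497 on the plus strand and H2-T23 at chr17:36029977-36032701 on the minus strand. Tapbp (chr17:33919478-33929290) is also in the region. B2m (chr2:122147687-122153082) and Nlrc5 (chr8:94434335-94527272) are on other chromosomes. These positions are gene spans with exons and introns, and the counts are those of the exons.

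Promoter sequences were available from RefSeq (GRCm38.p6) for 8 of the 10 genes, as windows from 250 bases before to 50 bases after the start of transcription. The stretches of B2m, H2-K1 and H2-D1 are shown because the light chain and both classical heavy chains all hold these 4 motifs, with the same spacing of the last pair, although B2m lies on another chromosome. Capitals mark a core of interferon regulatory factor sites (AANNGAAA or its reverse complement), a kappaB core (GGGANNNNCC), TGACG and ATTGG.
B2m: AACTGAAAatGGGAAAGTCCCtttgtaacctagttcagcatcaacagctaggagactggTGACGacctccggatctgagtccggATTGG
H2-K1: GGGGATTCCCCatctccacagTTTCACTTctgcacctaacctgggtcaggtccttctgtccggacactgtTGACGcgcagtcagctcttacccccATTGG
H2-D1: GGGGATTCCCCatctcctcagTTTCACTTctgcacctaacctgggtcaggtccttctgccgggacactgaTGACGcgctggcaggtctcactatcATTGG

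The sequences are written 5′ to 3′ on the strand of the gene and come from chr2:122147550-122147638 (plus strand) for B2m, chr17:34000359-34000458 (minus strand) for H2-K1 and chr17:35262923-35263022 (plus strand) for H2-D1. In each of them TGACG and ATTGG were exactly 20 bases apart, whereas the interferon regulatory factor core lay before the kappaB core in B2m and after it, in the reverse orientation, in H2-K1 and H2-D1. The stretches of H2-K1 and H2-D1 were identical at 89 of 100 bases. Taken alone, the motifs are common. Searched on both strands, the interferon regulatory factor core was found in at least 1 window of 26.7% of all 27025 genes, the kappaB core in 22.9%, TGACG in 23.05% and ATTGG in 41.1%, and motifs were allowed to overlap. Of the 8 genes with a window, 4 held the interferon regulatory factor core (B2m, H2-K1, H2-D1 and H2-T23), 3 the kappaB core, 5 TGACG and 7 ATTGG. The windows of Tap1 and Psmb9 overlap each other and share 1 TGACG and 1 ATTGG, so each of these counts for both genes. A pair of TGACG and ATTGG on the same strand with 18 to 22 bases between them, a spacing set after the sequences were seen, occurred in 3 of the 8 genes and in 80 of 27025 genes (0.296%). With the interferon regulatory factor core added, 13 genes remained, which included the heavy chain genes H2-Q7 and H2-M3 and the class II gene H2-Aa as well as B2m, H2-K1 and H2-D1.

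The libraries held 30415643 to 38743628 counts. The targeted genes followed the labels. Plekhg5 had 19.4 to 24.96 CPM (counts scaled to library size with TMM factors) in the 6 libraries of Plekhg5+/+ background and 3.28 to 4.72 CPM in the 6 of Plekhg5-/- background, and human SOD1 had 4421 to 5638 CPM with the transgene and at most 5.47 CPM without it. Motoneuron, astrocyte, oligodendrocyte and microglial markers were present in every library. Prx, a marker of peripheral nerve, differed between libraries, with means of 38.9 ± 21.4 CPM in Plekhg5+/+, 15.6 ± 5.7998 CPM in Plekhg5-/-, 23.3 ± 9.83 CPM in Plekhg5+/+ SOD1-G93A and 60.4 ± 13.1 CPM in Plekhg5-/- SOD1-G93A mice (SD, n = 3). Y-linked transcripts were found in 3 of the Plekhg5+/+ libraries, in 2 each of the Plekhg5-/- and Plekhg5+/+ SOD1-G93A libraries and in 1 of the Plekhg5-/- SOD1-G93A libraries. Over all genes, replicate 1 of the Plekhg5+/+ and of the Plekhg5-/- mice stood apart from the other 2 mice of its genotype, with a chi-square per degree of freedom of at least 23.4 against 7.54 between the others in Plekhg5+/+ and of at least 23.1 against 7.68 in Plekhg5-/- mice. In the class I genes it was Plekhg5+/+ SOD1-G93A replicate 1 that stood apart, with the highest level of all 12 libraries for 10 of 10 genes, whereas over all genes its values were 16.9 and 21.4 against 16.7 between the other 2 mice of that genotype. The comparisons that use this genotype are also given without that library.

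**Figure D1:**
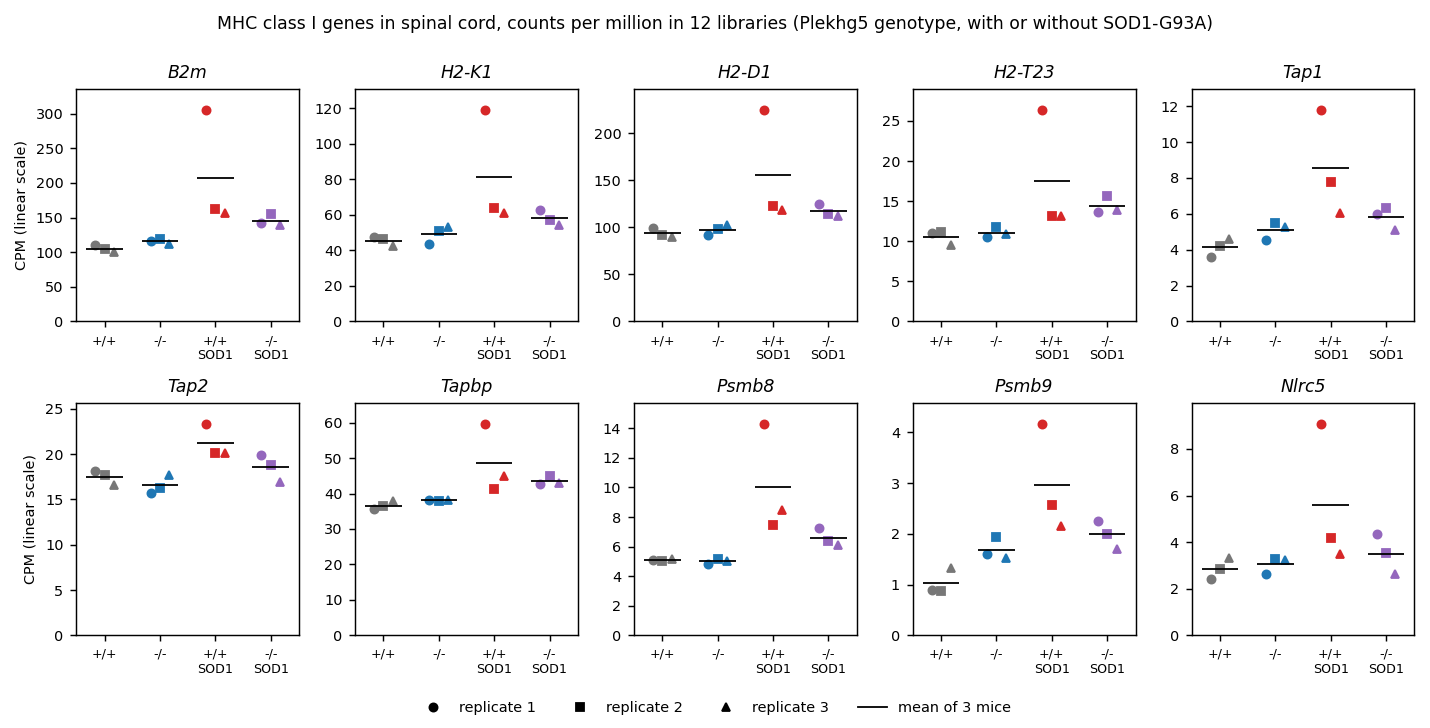
CPM of each class I gene (linear axis from 0) in each of the 12 libraries, grouped by genotype, with the mean of 3 mice as a line and the replicate number as the shape of the point. Replicate 1 of the Plekhg5+/+ SOD1-G93A mice is the highest point in 10 of 10 panels, for example at 305 CPM for B2m, and the other 2 replicates of that genotype also lie above the Plekhg5+/+ mice in 10 of 10 panels.

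B2m, the light chain shared by all class I molecules, rose in Plekhg5+/+ SOD1-G93A mice. It had 305, 162 and 156 CPM in these mice and 109.9, 104 and 101 CPM in Plekhg5+/+ mice, which are means of 207 ± 84.3 and 105 ± 4.55 CPM (SD, n = 3). The 3 transgenic libraries were all higher than the 3 controls, and replicate 1 had the highest level of all. The log2 fold change was 0.98 with a standard error of 0.201 and an adjusted p of 0.0301 (edgeR's quasi-likelihood test), and 0.60 without replicate 1 of the transgenic mice. In Plekhg5-/- mice B2m had 117, 119 and 112 CPM and in Plekhg5-/- SOD1-G93A mice 142, 155 and 139 CPM. The 4 genotypes did not overlap for B2m, with the order Plekhg5+/+, Plekhg5-/-, Plekhg5-/- SOD1-G93A and Plekhg5+/+ SOD1-G93A from low to high, and B2m was the only 1 of the 10 genes with this complete separation.

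H2-K1 and H2-D1 encode the classical heavy chains that present peptides to CD8+ T cells. H2-K1 had 47.7, 46.2 and 42.4 CPM in Plekhg5+/+ mice and 119, 63.7 and 61.3 CPM in Plekhg5+/+ SOD1-G93A mice. H2-D1 had 99.8, 92.2 and 90.1 CPM in Plekhg5+/+ mice and 225, 123 and 119 CPM in Plekhg5+/+ SOD1-G93A mice. For both genes every transgenic library was above every control, but neither passed the test. The log2 fold change was 0.84 ± 0.208 (SE) for H2-K1, with an adjusted p of 0.0592, and 0.73 ± 0.192 (SE) for H2-D1, with an adjusted p of 0.0717 (edgeR's quasi-likelihood test). Without replicate 1 of the Plekhg5+/+ SOD1-G93A mice the values were 0.46 and 0.36, and both genes then passed the test. In Plekhg5-/- mice H2-K1 had 43.6, 51.0 and 53.4 CPM and H2-D1 91.5, 98.9 and 102 CPM, which overlapped with the Plekhg5+/+ mice. In Plekhg5-/- SOD1-G93A mice H2-K1 had 62.8, 57.3 and 54.6 CPM and H2-D1 125, 114 and 112 CPM, above the Plekhg5-/- mice and overlapping with the Plekhg5+/+ SOD1-G93A mice.

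H2-T23 encodes Qa-1, a nonclassical heavy chain that natural killer cells read through their NKG2A receptor. It had 11.02, 11.2 and 9.49 CPM in Plekhg5+/+ mice and 26.3, 13.1 and 13.1 CPM in Plekhg5+/+ SOD1-G93A mice. The log2 fold change of 0.73 ± 0.218 (SE) did not pass the test (adjusted p = 0.0999, edgeR's quasi-likelihood test) and was 0.31 without replicate 1 of the Plekhg5+/+ SOD1-G93A mice. It had 10.6, 11.7 and 10.9 CPM in Plekhg5-/- mice and 13.7, 15.7 and 13.9 CPM in Plekhg5-/- SOD1-G93A mice, where 3 of 3 libraries were above replicates 2 and 3 of the Plekhg5+/+ SOD1-G93A mice. Reads of the heavy chain genes can match several near-identical copies and were then counted as fractions. Reads that overlap several genes were counted as fractions too. The counts of H2-K1, H2-D1 and H2-T23 were not whole in 12 of 12 libraries, so the division of reads between these genes and their relatives is uncertain. Those of Tapbp were not whole in 12 of 12 libraries either, from a source that was not examined, whereas those of B2m were not whole in 2 libraries.

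Compared per kilobase of exon, where levels of different genes can be set side by side, B2m was the most abundant of the 10 genes, with 122 ± 5.31 CPM per kb in Plekhg5+/+ mice (SD, n = 3), followed by H2-D1 with 54.2 ± 2.91, H2-K1 with 18.5 ± 1.097, Tapbp with 13.3 ± 0.411 and H2-T23 with 8.03 ± 0.713 CPM per kb. Within each library, the level of H2-D1 per kb was 44.9%, 43.8% and 44.1% of that of B2m in Plekhg5+/+ mice and 36.4%, 37.7% and 37.6% in Plekhg5+/+ SOD1-G93A mice. The range was 38.7% to 45.1% in Plekhg5-/- mice and 36.5% to 43.4% in Plekhg5-/- SOD1-G93A mice. H2-T23 stood at 6.13% to 7.01% of B2m in Plekhg5+/+ mice, at 5.30% to 5.63% in Plekhg5+/+ SOD1-G93A mice and at 6.27% to 6.59% in Plekhg5-/- SOD1-G93A mice. The share of these heavy chains relative to the light chain was therefore lower in all 3 Plekhg5+/+ SOD1-G93A libraries than in the Plekhg5+/+ libraries, replicate 1 included. The difference was not tested.

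Tap1 and Tap2 pair to form the peptide transporter. Tap1 rose in Plekhg5+/+ SOD1-G93A mice, from 3.60, 4.22 and 4.59 CPM in Plekhg5+/+ mice to 11.8, 7.79 and 6.03 CPM, with a log2 fold change of 1.04 ± 0.206 (SE) and an adjusted p of 0.0234 (edgeR's quasi-likelihood test), and 0.74 without replicate 1 of the transgenic mice. Tap2 had 18.2, 17.7 and 16.6 CPM in Plekhg5+/+ mice and 23.3, 20.1 and 20.2 CPM in Plekhg5+/+ SOD1-G93A mice. Its log2 fold change of 0.28 ± 0.0872 (SE) was the smallest of the 10 and did not pass the test (adjusted p = 0.111, edgeR's quasi-likelihood test), although the groups did not overlap, and was 0.21 without that library. Per kilobase of exon, Tap1 reached 20.1% ± 3.34 of the level of Tap2 in Plekhg5+/+ mice, 33.5% ± 8.71 in Plekhg5+/+ SOD1-G93A mice, 26.0% ± 2.16 in Plekhg5-/- mice and 26.3% ± 1.72 in Plekhg5-/- SOD1-G93A mice (SD, n = 3). Tap1 was thus the scarcer of both subunits in every genotype.

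In Plekhg5-/- mice Tap1 had 4.56, 5.48 and 5.24 CPM and Tap2 15.7, 16.2 and 17.7 CPM. In Plekhg5-/- SOD1-G93A mice Tap1 had 6.01, 6.31 and 5.08 CPM and Tap2 19.95, 18.8 and 16.96 CPM. Both genes overlapped between these genotypes. Tapbp encodes tapasin, which holds empty class I molecules next to the transporter. It had 35.6, 36.4 and 37.8 CPM in Plekhg5+/+ mice, 38.2, 37.9 and 38.1 CPM in Plekhg5-/- mice, 59.6, 41.3 and 45.1 CPM in Plekhg5+/+ SOD1-G93A mice and 42.6, 44.9 and 42.9 CPM in Plekhg5-/- SOD1-G93A mice. All 6 libraries with the transgene were above all 6 without it, which also held for B2m, H2-K1, H2-D1, H2-T23 and Psmb8. The share of all genes with this split was not counted. With the transgene, 11.6% of all genes were higher without overlap in the Plekhg5+/+ background and 7.25% in the Plekhg5-/- background. The log2 fold change between Plekhg5+/+ SOD1-G93A and Plekhg5+/+ mice was 0.41 ± 0.105 (SE), with an adjusted p of 0.0586 (edgeR's quasi-likelihood test), and 0.24 without replicate 1 of the transgenic mice.

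Psmb8 and Psmb9 encode subunits of the immunoproteasome, which replace the constitutive subunits Psmb5 and Psmb6 in cells exposed to interferon, and both rose in Plekhg5+/+ SOD1-G93A mice. Psmb8 had 5.07, 5.04 and 5.14 CPM in Plekhg5+/+ mice and 14.3, 7.43 and 8.46 CPM in Plekhg5+/+ SOD1-G93A mice, with a log2 fold change of 0.98 ± 0.194 (SE) and an adjusted p of 0.0235 (edgeR's quasi-likelihood test), and 0.64 without replicate 1 of the transgenic mice. Psmb9 had 0.899, 0.881 and 1.32 CPM in Plekhg5+/+ mice and 4.16, 2.57 and 2.16 CPM in Plekhg5+/+ SOD1-G93A mice. Its log2 fold change of 1.52 ± 0.255 (SE) was the largest of the 10 (adjusted p = 0.0146, edgeR's quasi-likelihood test), on counts that ranged from 28 to 134 reads per library, and was 1.19 without that replicate. In Plekhg5-/- mice Psmb8 had 4.83, 5.15 and 5.05 CPM and Psmb9 1.61, 1.93 and 1.51 CPM, so that Psmb8 overlapped with the Plekhg5+/+ mice and Psmb9 did not. In Plekhg5-/- SOD1-G93A mice Psmb8 had 7.28, 6.38 and 6.14 CPM and Psmb9 2.25, 2.00 and 1.71 CPM, and for Psmb8 3 of 3 libraries were below the Plekhg5+/+ SOD1-G93A mice and above the Plekhg5-/- mice.

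The constitutive subunits had log2 fold changes of −0.02 (Psmb5), 0.05 (Psmb6) and −0.06 (Psmb7) between Plekhg5+/+ SOD1-G93A and Plekhg5+/+ mice and did not pass the test. Per kilobase of exon, Psmb8 reached 7.20%, 9.01% and 8.84% of Psmb5 in Plekhg5+/+ mice and 24.6%, 13.4% and 12.4% in Plekhg5+/+ SOD1-G93A mice. In Plekhg5-/- SOD1-G93A mice the share was 13.0%, 11.3% and 10.6%, and in Plekhg5-/- mice 6.36%, 8.81% and 8.97%. Psmb9 reached 1.16% ± 0.363 of Psmb6 in Plekhg5+/+ mice and 3.22% ± 1.31 in Plekhg5+/+ SOD1-G93A mice (SD, n = 3). Both inducible subunits therefore stayed well below their constitutive counterparts at the RNA level in every library. The other inducible subunit, Psmb10, had 17.7% ± 0.288 of Psmb7 in Plekhg5+/+ mice and 20.3% ± 2.35 in Plekhg5+/+ SOD1-G93A mice (SD, n = 3), with overlap, and its log2 fold change of 0.13 did not pass the test.

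Nlrc5, the transactivator of class I promoters, had the lowest level of the 10 genes per kilobase of exon, 0.360 ± 0.0569 CPM per kb in Plekhg5+/+ mice (SD, n = 3). It had 2.41, 2.83 and 3.31 CPM in Plekhg5+/+ mice and 9.07, 4.19 and 3.51 CPM in Plekhg5+/+ SOD1-G93A mice. The log2 fold change was 0.97, close to that of B2m and Psmb8, with a larger standard error of 0.309 (adjusted p = 0.117, edgeR's quasi-likelihood test), and was 0.43 without replicate 1 of the Plekhg5+/+ SOD1-G93A mice. Plekhg5-/- mice had 2.63, 3.28 and 3.22 CPM and Plekhg5-/- SOD1-G93A mice 4.35, 3.52 and 2.64 CPM, overlapping with each other.

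The effect of the transgene with intact Plekhg5 was thus an increase of 4 of the 10 genes, B2m, Tap1, Psmb8 and Psmb9, at an adjusted p under 0.05, whereas 2.09% of all genes tested were called higher. All 10 had a positive log2 fold change and an unadjusted p under 0.05, as did 10.6% of all genes in the higher direction, and for 10 of 10 the groups did not overlap, which was so for 11.6% of all genes in this direction. The log2 fold changes had a median of 0.91 over the 10 genes and of −0.00 over all genes. The number of calls changed between fits. With only these 2 genotypes in the fit or without replicate 1 or replicate 2 of the Plekhg5+/+ mice 0 of the 10 genes passed. Nearly all calls were lost in these fits, as 3, 4 and 2 of all genes passed. DESeq2 called 9, all except Tap2, and of 19597 genes it called 820 higher with its prior and 790 without. Without Plekhg5+/+ SOD1-G93A replicate 1, 6 genes passed (B2m, H2-K1, H2-D1, Tap1, Psmb8 and Psmb9) with a median log2 fold change of 0.45 over the 10 genes. In that fit 214 of 20448 genes were called higher.

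**Figure D2:**
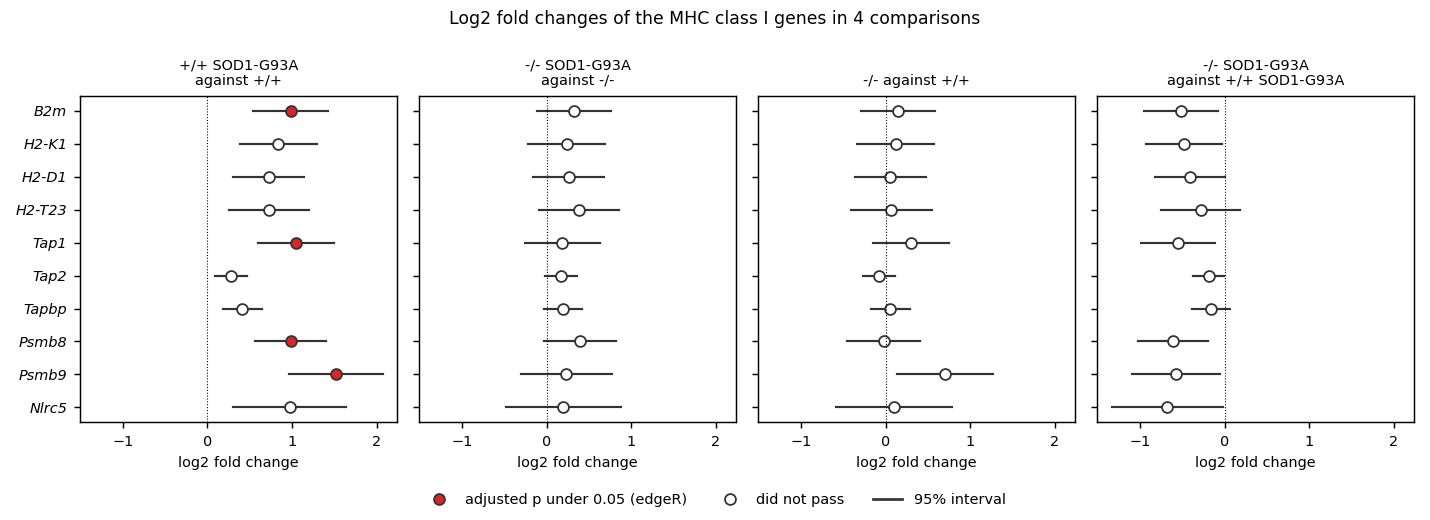
Log2 fold changes of the class I genes with 95% intervals from edgeR (horizontal axis) in 4 comparisons, with filled points where the adjusted p was under 0.05. In the first panel 10 of 10 genes lie right of 0 and 4 are filled, and in the last panel 10 of 10 lie left of 0 and none is filled.

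Where Plekhg5 was absent, the transgene gave smaller differences. Between Plekhg5-/- SOD1-G93A and Plekhg5-/- mice the log2 fold changes ranged from 0.17 to 0.40 with a median of 0.24, all 10 were positive, and 0 of 10 genes passed the test (adjusted p from 0.949 to 0.959, edgeR's quasi-likelihood test), with 0 at an unadjusted p under 0.05 as well. In this comparison 0.00496% of all genes were called. The groups did not overlap for 6 of the 10 genes, B2m, H2-K1, H2-D1, H2-T23, Tapbp and Psmb8, and for 7.25% of all genes in the higher direction. The largest difference was that of Psmb8, with 0.40 ± 0.196 (SE) and a 95% interval from −0.03 to 0.82.

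Loss of Plekhg5 without the transgene gave small differences. The log2 fold changes between Plekhg5-/- and Plekhg5+/+ mice had a median of 0.08, 8 of 10 were positive, and 0 of 10 genes passed the test (adjusted p from 0.929 to 1.00, edgeR's quasi-likelihood test), where 0.0298% of all genes were called. Of the 95% intervals, that of B2m ran from −0.29 to 0.58 and that of Tap2 from −0.27 to 0.11, so that changes of a size within these limits could not be detected. Psmb9 had the largest difference, 0.71 ± 0.262 (SE) with a 95% interval from 0.14 to 1.27, and was the only 1 of the 10 with an unadjusted p under 0.05. B2m, Tapbp and Psmb9 did not overlap between the genotypes and were higher in Plekhg5-/- mice, as were 4.72% of all genes.

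In transgenic mice, loss of Plekhg5 was accompanied by lower values that did not pass the test. With Plekhg5+/+ SOD1-G93A mice as the reference, 10 of 10 log2 fold changes were negative, from −0.68 for Nlrc5 to −0.16 for Tapbp with a median of −0.50, and 7 had an unadjusted p under 0.05, as did 5.05% of all genes in the lower direction. None was called at an adjusted p under 0.05 (0.440 to 0.689, edgeR's quasi-likelihood test, and 0 with DESeq2), and 0.0198% of all genes were called lower. B2m, Tap2 and Psmb8 did not overlap between these groups, and neither did 10% of all genes in the lower direction. Without Plekhg5+/+ SOD1-G93A replicate 1 the median was −0.12 and Nlrc5 had −0.14, 8 of the 10 values were negative and H2-T23 and Tapbp had values of 0.13 and 0.01. The difference between both effects of Plekhg5 loss, tested as an interaction, was negative for 10 of 10 genes with a median of −0.59. Psmb9 had the largest, −1.28 ± 0.355 (SE), and 3 genes (B2m, Tap1 and Psmb9) had an unadjusted p under 0.05, whereas 5.18% of all genes had such a p in this direction. None of the 10 was called (adjusted p from 0.375 to 0.760, edgeR's quasi-likelihood test, and 0 with DESeq2), as was 0% of all genes. Without Plekhg5+/+ SOD1-G93A replicate 1 the median of the interaction was −0.23.

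The order of the genotype means was Plekhg5+/+, Plekhg5-/-, Plekhg5-/- SOD1-G93A and Plekhg5+/+ SOD1-G93A from low to high for 8 of the 10 genes, and for Tap2 and Psmb8 the first 2 were exchanged. Of neighbours in this order, the lowest pair did not overlap for 3 genes, the middle pair for 6 and the highest pair for 3. Neighbouring genotypes in this order therefore often did not differ beyond the spread between mice. Over all genes, 4.72% were higher without overlap in Plekhg5-/- than in Plekhg5+/+ mice. For Plekhg5-/- SOD1-G93A above Plekhg5-/- mice the share was 7.25%, and for Plekhg5-/- SOD1-G93A below Plekhg5+/+ SOD1-G93A mice 10%.

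**Figure D3:**
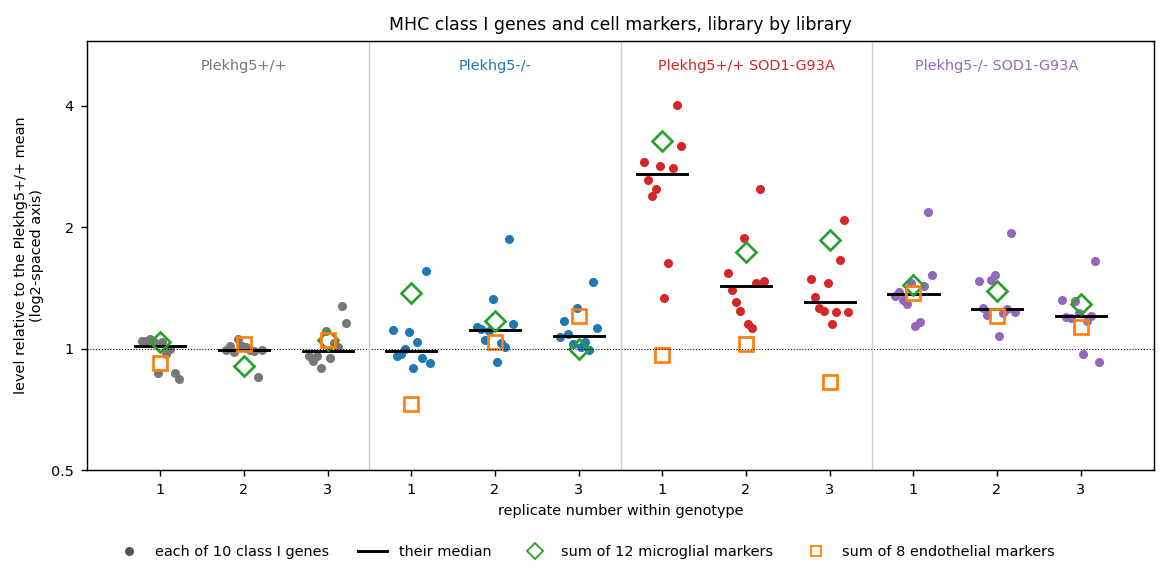
Level of each of the 10 class I genes in each library divided by the Plekhg5+/+ mean (vertical axis spaced in log2 steps), with the median of the 10 genes as a line, the summed level of 12 microglial markers as diamonds and that of 8 endothelial markers as squares. The median reaches 2.71 in Plekhg5+/+ SOD1-G93A replicate 1 and 1.43 and 1.30 in replicates 2 and 3, and the microglial sum is at 3.27, 1.74 and 1.86 in the same libraries.

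The spread between mice was unequal. Relative to the Plekhg5+/+ mean, the median over the 10 genes was 2.71, 1.43 and 1.30 in the Plekhg5+/+ SOD1-G93A mice, 1.37, 1.26 and 1.204 in the Plekhg5-/- SOD1-G93A mice and 0.987, 1.12 and 1.08 in the Plekhg5-/- mice. Replicates 2 and 3 of the Plekhg5+/+ SOD1-G93A mice were thus close to the Plekhg5-/- SOD1-G93A mice, and replicate 1 was 1.16 to 2.36 times the mean of the other 2, with Tap2 at the lower and Nlrc5 at the upper end. The coefficient of variation between the 3 mice had a median over the 10 genes of 37.7% in Plekhg5+/+ SOD1-G93A mice and of 5.65%, 5.98% and 7.83% in the Plekhg5+/+, Plekhg5-/- and Plekhg5-/- SOD1-G93A mice.

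Microglial markers were also higher with the transgene, mainly in the Plekhg5+/+ background. Of 12 markers, 11 rose in Plekhg5+/+ SOD1-G93A mice with a median log2 fold change of 1.25 over the 12, among them Csf1r (0.89). In the Plekhg5-/- background the median was 0.25, with 0 of 12 called and 0 at an unadjusted p under 0.05. Between the transgenic genotypes all 12 were lower without Plekhg5, with a median of −0.75, 0 called and 11 at an unadjusted p under 0.05. The interaction had a median of −1.03, with 0 of these markers called and 11 at an unadjusted p under 0.05. Their summed level was 517 to 602 CPM in Plekhg5+/+ mice, 569 to 784 CPM in Plekhg5-/- mice, 992 to 1866 CPM in Plekhg5+/+ SOD1-G93A mice and 737 to 822 CPM in Plekhg5-/- SOD1-G93A mice, again highest in Plekhg5+/+ SOD1-G93A replicate 1. The summed CPM of the 10 class I genes was 51.8% to 62.1% of that of the microglial markers in Plekhg5+/+ mice, 41.0% to 44.9% in Plekhg5+/+ SOD1-G93A mice, 51.8% to 53.6% in Plekhg5-/- SOD1-G93A mice and 42.1% to 61.5% in Plekhg5-/- mice. Within genotypes the relation of both sums varied. In Plekhg5-/- mice the microglial sum was 784, 669 and 569 CPM and the class I sum 329.9, 351 and 349.6 CPM. In Plekhg5+/+ mice these sums were 591, 517 and 602 CPM and 334, 321 and 312 CPM. In both genotypes the library with the highest microglial sum thus had the lowest class I sum. In each transgenic genotype replicate 1 was highest in both sums. It had 1866 and 797 CPM in Plekhg5+/+ SOD1-G93A mice and 822 and 426 CPM in Plekhg5-/- SOD1-G93A mice. In bulk tissue a different number of cells of a type and a different amount of RNA per cell cannot be told apart, and the part of microglia in the class I result was not tested.

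Other cell types were examined by marker lists as well. Of 8 astrocyte markers 2 rose (Gfap with a log2 fold change of 1.23, and Sox9), with a summed level of 6803 to 6913 CPM in Plekhg5+/+, 8317 to 11536 CPM in Plekhg5+/+ SOD1-G93A and 7775 to 8058 CPM in Plekhg5-/- SOD1-G93A mice. Of 8 endothelial markers 0 were called, either with the transgene or between the transgenic genotypes. Their sum was 209 to 239 CPM in Plekhg5+/+, 166 to 274 CPM in Plekhg5-/- and 187 to 233 CPM in Plekhg5+/+ SOD1-G93A mice, and with 258 to 311 CPM it was higher in all 3 Plekhg5-/- SOD1-G93A libraries than in the Plekhg5+/+ SOD1-G93A libraries, with a median log2 fold change of 0.47 and 5 markers at an unadjusted p under 0.05. Of 8 motoneuron markers 1 fell in Plekhg5+/+ SOD1-G93A against Plekhg5+/+ mice, Chodl with a log2 fold change of −0.83, and the sum was 392 to 482 CPM against 512 to 524 CPM and 425 to 530 CPM in Plekhg5-/- SOD1-G93A mice. Of 8 oligodendrocyte markers 1 rose, Opalin with 0.76, and of 5 red cell markers 0 were called, with sums of 698 to 1228 CPM in Plekhg5+/+, 955 to 2071 CPM in Plekhg5+/+ SOD1-G93A and 574 to 977 CPM in Plekhg5-/- SOD1-G93A mice. Of 12 T and NK cell markers, 9 stayed under 1 CPM in every library, Cd3e reached at most 0.243 CPM, and the summed level was 0.796 to 1.48 CPM in Plekhg5+/+, 1.95 to 2.58 CPM in Plekhg5+/+ SOD1-G93A and 1.61 to 5.71 CPM in Plekhg5-/- SOD1-G93A mice. For 8 markers of monocytes, dendritic cells and B cells the sum was 37.1 to 44.5 CPM in Plekhg5+/+ and 31.3 to 34.3 CPM in Plekhg5+/+ SOD1-G93A mice, most of it Flt3. The sum does not stand for the list, as 3 of the 6 tested markers had a positive log2 fold change. Their values ranged from −0.42 to 1.72 with a median of 0.46, and 0 were called. The part of these cell types in the class I result was not tested.

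The 10 genes followed one another closely over the libraries. The 45 pairs had a median Pearson correlation of 0.905 over 12 libraries on the log2 CPM scale, and H2-K1 and H2-D1 were the closest pair with 0.994. After removal of the genotype means the median was 0.808, and without Plekhg5+/+ SOD1-G93A replicate 1 and with means removed it was 0.160, so that the correlation within genotypes was much lower without this library. Among 19998 other genes tested, those most like the mean of the 10 over 12 libraries were Casp8 (r = 0.991), an initiator caspase, Tent5c (0.988), a poly(A) polymerase, Grn (0.986), which encodes the lysosomal protein progranulin, Cd44 (0.984), a hyaluronan receptor, and Cd34 (0.984). A correlation above 0.9 was reached by 383 genes (1.92%). Grn had 52.3, 49.4 and 48.5 CPM in Plekhg5+/+ mice and 198, 87.4 and 84.9 CPM in Plekhg5+/+ SOD1-G93A mice, with the same high library. These correlations rest on libraries that share genotypes and are given as a description.

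The related genes of the pathway were described by list. Of 13 other heavy chain genes tested 0 were called in Plekhg5+/+ SOD1-G93A mice, with a median log2 fold change of 0.20. The highest were H2-Q6 with 1.29 ± 0.323 (SE), H2-Q4 with 1.1997 ± 0.316 and H2-T24 with 1.01 ± 0.288, with adjusted p-values of 0.0577, 0.0706 and 0.0874 (edgeR's quasi-likelihood test) and counts that were fractions in 9 to 12 libraries. H2-Q6 had 2.697, 2.55 and 2.27 CPM in Plekhg5+/+ mice and 9.41, 5.02 and 3.96 CPM in Plekhg5+/+ SOD1-G93A mice. Of 6 class I-like genes 0 were called. Mr1, which presents vitamin metabolites, had 0.41 ± 0.111 (SE, adjusted p = 0.0722 by edgeR's quasi-likelihood test), Hfe, the iron regulator, had 0.23 and Fcgrt, the neonatal Fc receptor, had 0.18.

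Among 13 genes of peptide supply 0 were called and the median was −0.02. The proteasome activator subunits Psme1 and Psme2, also interferon targets, had log2 fold changes of 0.47 and 0.29, and the aminopeptidase Lap3 had 0.26. Among 12 genes of peptide loading 0 were called and the median was −0.05. The chaperone Hspa5 had −0.86 ± 0.217 (SE, adjusted p = 0.0639 by edgeR's quasi-likelihood test), Calr −0.29 and the trimming peptidase Erap1 0.29. Hspa5 and Calr were also lower in Plekhg5-/- than in Plekhg5+/+ mice, with −0.84 and −0.40, which did not pass the test. Among the Plekhg5+/+ mice Hspa5 itself varied widely, with 651, 504 and 303 CPM. No gene of general folding or of the constitutive proteasome was called beside Tap1, Psmb8 and Psmb9. The difference between the lists was not tested.

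Of 18 regulators of class I transcription 0 were called in Plekhg5+/+ SOD1-G93A against Plekhg5+/+ mice. Irf1, an interferon-induced activator, had a log2 fold change of 0.59 ± 0.166 (SE) and Rela, a kappaB factor, 0.24 ± 0.0753, whereas Creb1 had −0.38 ± 0.0999, with adjusted p-values of 0.0847, 0.115 and 0.0657 (edgeR's quasi-likelihood test). On the input side, 2 of 10 tested genes of interferon and TNF signalling rose. The TNF receptor Tnfrsf1a had 19.98, 19.1 and 18.6 CPM in Plekhg5+/+ mice and 47.3, 27.9 and 27.2 CPM in Plekhg5+/+ SOD1-G93A mice, with a log2 fold change of 0.83 ± 0.172 (SE) and an adjusted p of 0.0282 (edgeR's quasi-likelihood test). The type I interferon receptor subunit Ifnar2 had 17.1, 15.6 and 16.5 CPM and 26.4, 21.1 and 20.8 CPM, with 0.47 ± 0.1003 (SE) and an adjusted p of 0.0308 (edgeR's quasi-likelihood test). The interferons themselves were at or near 0, since Ifng reached at most 0.0330 CPM and Ifnb1 at most 0.0621 CPM in any library, and both were not tested. Tnf had a log2 fold change of 2.39 ± 0.737 (SE, adjusted p = 0.106 by edgeR's quasi-likelihood test) at levels of at most 0.528 CPM.

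Of 16 listed genes for class I receptors and members of their families 6 were tested and 1 rose. It was Lilrb4a, and these data do not show whether its product binds class I molecules. Lilrb4a, an inhibitory receptor of myeloid cells in the leukocyte immunoglobulin-like family, had 1.39, 1.64 and 2.08 CPM in Plekhg5+/+ mice and 16.8, 5.61 and 4.59 CPM in Plekhg5+/+ SOD1-G93A mice, with a log2 fold change of 2.401 ± 0.515 (SE) and an adjusted p of 0.0385 (edgeR's quasi-likelihood test). It had 5.46, 3.10 and 2.02 CPM in Plekhg5-/- SOD1-G93A mice and 1.14, 1.599 and 2.08 CPM in Plekhg5-/- mice. Pirb, the receptor for class I molecules on myeloid cells and neurons, had a log2 fold change of 0.63, and the T cell coreceptor Cd8a 1.502, and neither passed the test. Cd8a had at most 0.570 CPM in Plekhg5+/+ SOD1-G93A mice and at most 1.21 CPM in any library, a Plekhg5-/- SOD1-G93A mouse. Between Plekhg5-/- SOD1-G93A and Plekhg5-/- mice its log2 fold change was 3.36 ± 0.799 (SE, adjusted p = 0.455 by edgeR's quasi-likelihood test). In the other 4 comparisons 0 genes of these lists were called.

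**Figure D4:**
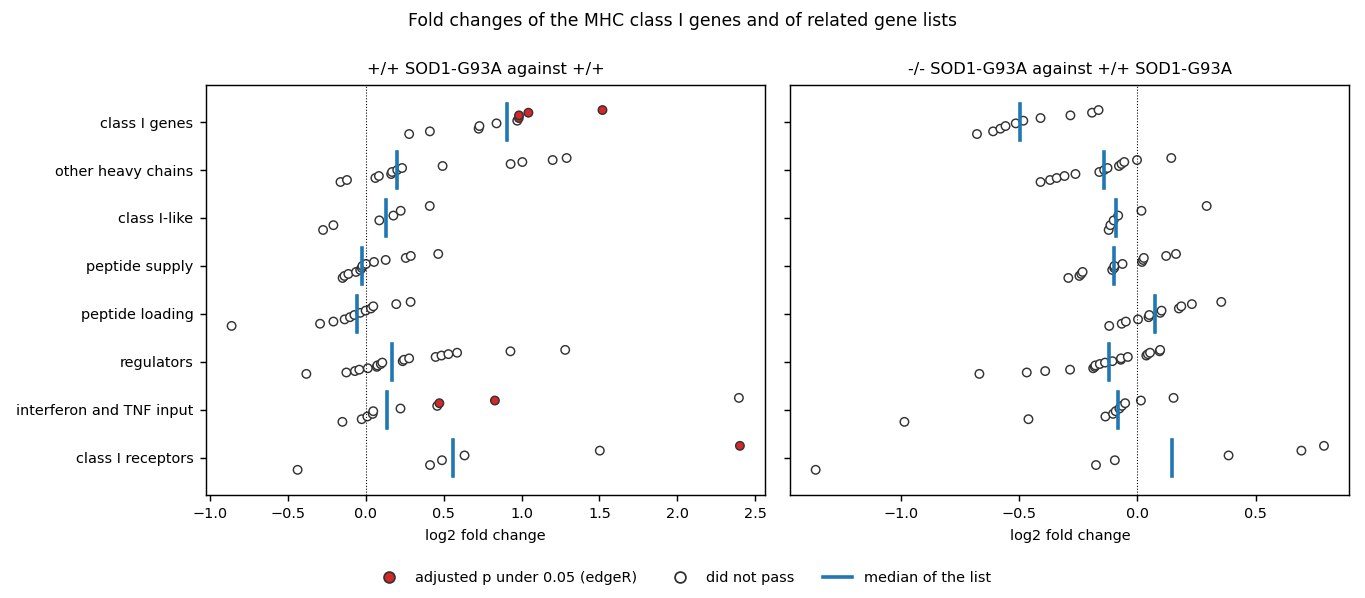
Log2 fold changes (horizontal axis) of the 10 class I genes and of the tested genes of 7 related lists in 2 comparisons, with filled points where the adjusted p was under 0.05 and a line at the median of each list. In the left panel the medians are 0.91 for the class I genes and 0.20 for the other heavy chains, and filled points outside the class I genes are Tnfrsf1a, Ifnar2 and Lilrb4a.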

How the data were processed

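Total RNA of spinal cord from 12 mice was enriched for poly-A RNA and sequenced with a stranded kit. According to the paper's methods and the submitters' processing notes, the authors trimmed the reads with cutadapt (2.4), aligned them with STAR (2.7.2b) to GRCm38.p6 with the human SOD1 cDNA added, and counted exon reads per RefSeq gene by strand with featureCounts (1.6.4). Reads that matched several places or genes were counted as fractions, so the deposited values are estimated counts, without normalization. This divides reads of similar heavy chain genes among them.

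Counts were rounded, filtered with filterByExpr (20155 of 45906 genes kept) and tested with edgeR (4.0.16, R 4.3.3) by a robust quasi-likelihood fit with TMM factors and a mean per genotype over 12 libraries. The comparisons were those of the transgene at each Plekhg5 genotype, of Plekhg5 loss with and without the transgene, and their interaction. P-values were adjusted by Benjamini-Hochberg over all genes tested, with a threshold of 0.05. Log2 CPM for correlations used a prior count of 2. The model was tested on simulated data. Counts of same-genotype libraries differed more than by sampling (chi-square per degree of freedom 5.82 to 28.4), so all were kept as separate samples. At this depth the count of a class I gene per library ranged from 28 (Psmb9) to 9813 (B2m).

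Named were the 10 class I genes, pathway genes called in any comparison, the 3 pathway genes per list with the smallest p in Plekhg5+/+ SOD1-G93A against Plekhg5+/+ mice, the targeted genes, the 2 most abundant markers of a list or markers near 0, and the 5 genes most like the class I genes. Psmb5, Psmb6, Psmb7, Psmb10, Ifng, Ifnb1, Sox9, Chodl, Opalin, Hspb6, H2-Q7, H2-M3 and H2-Aa were named after their values were seen. The class I genes and all lists were chosen with earlier results of these data known. H2-L and Nrdc had no row in the table used here. Some markers that this rule names are not reported here. Alternatives were DESeq2 (1.42.0), with its fold-change prior or with none, its size factors, no filter, at least 10 counts in every library, only 2 genotypes, the replicate number as a block, Y-linked transcripts as a covariate, and leaving out each library. The paper itself tested with DESeq2 and this prior, in an earlier version.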

Additional observations from a re-analysis of the deposited data

Results flagged for a closer look

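B2m drew attention because the Plekhg5 genotypes were apart in opposite directions with and without the transgene. All 3 Plekhg5-/- libraries (112 to 119 CPM) were above the 3 Plekhg5+/+ libraries (101 to 109.9 CPM), whereas all 3 Plekhg5-/- SOD1-G93A libraries (139 to 155 CPM) were below the 3 Plekhg5+/+ SOD1-G93A libraries (156 to 305 CPM). Over all genes, 4.72% were apart in the first way and 10% in the second, and the share with both was not counted. The interaction had a log2 fold change of −0.66 (SE 0.282). By edgeR's quasi-likelihood test it did not pass the correction over all genes (adjusted p = 0.522), and it was −0.27 when replicate 1 of the Plekhg5+/+ SOD1-G93A mice was left out.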

How the results depend on the processing

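The number of class I genes called in Plekhg5+/+ SOD1-G93A against Plekhg5+/+ mice, 4 of 10, was 9 with DESeq2 with or without a prior and 0 with only the 2 genotypes in the fit. With 1 library left out it ranged from 0 (without Plekhg5+/+ replicate 1 or 2) to 8 (without Plekhg5+/+ SOD1-G93A replicate 2 or 3). Over all genes, 4 and 2 were called without Plekhg5+/+ replicates 1 and 2. Without Plekhg5+/+ SOD1-G93A replicates 2 and 3, 771 and 596 were called. The number of class I genes called was 4 to 5 with the other planned settings, and 0 in every setting for the other 4 comparisons. None of the 4 called values changed its sign in any setting. The cause was not tested. Over all genes, DESeq2 with and without the prior called 1200 and 1159 genes in place of 498 in this comparison, 115 and 75 in place of 7 for Plekhg5-/- SOD1-G93A against Plekhg5+/+ SOD1-G93A, 32 and 34 in place of 6 for Plekhg5-/- against Plekhg5+/+, 41 and 43 in place of 1 for Plekhg5-/- SOD1-G93A against Plekhg5-/-, and 112 and 95 in place of 0 for the interaction. With only 2 genotypes the first 4 of these counts were 3, 11, 4 and 20, with at least 10 counts in every library the fourth was 0, and with no filter the interaction had 1. Leaving out 1 library gave ranges of 2 to 771, 4 to 8, 5 to 59, 1 to 9 and 0 to 40.

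Whether equal replicate numbers pair the mice was not settled by the values. Deviations of same-numbered libraries correlated from −0.16 to 0.32, over 0.1 in 5 of 18 pairs, and 6 of 12 libraries correlated best with their own number. With the replicate block 4 class I genes and 631 genes were called in Plekhg5+/+ SOD1-G93A against Plekhg5+/+ mice. With 3 mice per genotype, the standard error of the log2 fold change in this comparison was highest for Nlrc5 (0.309) and Psmb9 (0.255), and Psmb9 had the fewest reads, 28 to 134 per library.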

Other observations

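The pair of TGACG and ATTGG with 18 to 22 bases between them, seen in the promoters of B2m, H2-K1 and H2-D1, also occurs in genes outside the class I pathway. Of the 77 other genes with this spacing 64 were tested, and 1 of them, Hspb6, was called higher in Plekhg5+/+ SOD1-G93A against Plekhg5+/+ mice (edgeR's quasi-likelihood test), with a median log2 fold change of −0.03. Of the 10 other genes that also hold the interferon regulatory factor core 8 were tested, 7 had a positive value and 0 were called, with a median of 0.15. Among these, H2-Q7 had a log2 fold change of 0.93 (SE 0.275, adjusted p = 0.0952, edgeR's quasi-likelihood test) and H2-M3, a heavy chain that presents bacterial formyl peptides, had 0.16. The class II gene H2-Aa had 0.34, with mean levels of 6.06 CPM in Plekhg5+/+ and 7.68 CPM in Plekhg5+/+ SOD1-G93A mice.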
